A study of Mus musculus with 23 samples.

Results

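The regions described here are places in the mouse genome where the nuclear receptor NR5A2 was found on accessible chromatin, but where the NR5A2 motif lies to the side of the point of highest accessibility. They are autosomal regions that the authors' table classes as bound and accessible. In each, the authors had moved the CUT&RUN summit onto an NR5A2 motif, and that recentred position lay at least 150 bp from the ATAC-seq summit. Of 16958 listed regions, 2923 met these conditions, out of 7938 accessible autosomal regions and 6948 of those with a moved summit. They are called distant-motif regions below and were compared mainly with the 1869 regions whose motif lay within 50 bp of the ATAC-seq summit, called summit-motif regions.

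NR5A2, also known as LRH-1, is a nuclear receptor that binds DNA as a monomer, at a core of the form AAGGNCA with a short extension on its 5′ side. It is present in the pre-implantation mouse embryo and is known for its role in keeping Pou5f1 expressed in the early epiblast. ATAC-seq cuts open chromatin with a transposase, so its summit marks where a stretch of DNA is most exposed. CUT&RUN uses a nuclease tethered by an antibody, so its summit marks where the factor sat.

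All libraries were ATAC-seq of mouse embryos at the 8-cell stage, 23 in all. The NR5A2 CUT&RUN values came from an earlier study and not from these libraries, so binding and accessibility were measured in different samples. In the maternal-zygotic series, 13 single embryos labelled mz_NrKO lacked Nr5a2 from both the mother and the embryo, and 8 single embryos labelled mz_NrHet, heterozygous and not wild type, served as their controls. In the inducible series, 1 pool labelled iNrKO_plus_Tam_NrKO was treated with 750 nM 4-hydroxytamoxifen for 24 h and 1 pool labelled iNrKO_minus_Tam_Nrpp was left untreated. Culture of both pools began at 2 cells (30 h past the hCG injection) and lasted 45 h, whereas the embryos of the maternal-zygotic series were analysed ex vivo at 8 cells. The strain, the Cre driver of the inducible line and the number of embryos in a pool are not given in the sources used here, and tamoxifen treatment of embryos without the inducible allele was not analysed here. The table holds a single merged ATAC-seq value per group, in RPKM, a read count scaled to library depth and window length, and no value in it measures the deletion of Nr5a2 itself.

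Few reads lay behind each region. Every RPKM value was a whole multiple of the value of 1 read, so the reads could be recovered. Over the distant-motif regions they came to 27260 in the knockouts and 25182 in the heterozygotes, and to 44139 in the treated and 66953 in the untreated pool. A distant-motif region had a median of 7 reads in the knockouts, 7 in the heterozygotes, 13 in the treated pool and 21 in the untreated pool. Regions with 0 reads numbered 70, 84, 7 and 0 in the same order of groups, and a count of 0 allows a level of up to 1.08, 1.76, 0.510 and 0.490 RPKM. With merged groups, the intervals and tests below cover the counting of reads only, and compare these merged libraries without any spread between embryos.

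The recentred position could be read in sequence where it fell in the promoter window of a RefSeq gene (GRCm38.p6, 250 bases before to 50 bases after the start). That was so for 27 distant-motif regions and 19 summit-motif regions. Within the 9 bases at the recentred position, 18 of the 27 (66.7%) held AAGGNCA on either strand and 5 (18.5%) held the longer TCAAGGNCA, which contains it. Among the summit-motif regions these were 9 of 19 (47.4%) and 4 of 19 (21.1%), and over all 117 regions with a moved summit that could be read, 69 (59.0%) and 31 (26.5%). Anywhere in a promoter window, on either strand, AAGGNCA occurred in 20.3% and TCAAGGNCA in 1.62% of 32851 windows, which are far longer than 9 bases. The following windows show 3 of the distant motifs, with 10 bases on each side. Each is written 5′ to 3′ on the strand that carries the motif, with the 9 bases of the motif in capitals.

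Mfsd10 (chr5:34637415-34637443, minus strand): ggtcaggaatTCAAGGTCAaccgtggcta
Plcd1 (chr9:119088449-119088477, minus strand): tatccggagtTCAAGGCCAcctcagccac
Gm10044 (chr14:7791931-7791959, plus strand): tgtgcacaccTCAAGGACAgttactgcaa

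The distances from motif to ATAC-seq summit at these were 255 bp for Mfsd10, 188 bp for Plcd1 and 275 bp for Gm10044. For comparison, the same windows are shown for summit-motif regions, where the distances were 43 bp for Gpr161, 24 bp for Mtrf1l and 17 bp for Psap.

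Gpr161 (chr1:165295673-165295701, plus strand): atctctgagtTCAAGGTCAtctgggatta
Mtrf1l (chr10:5824133-5824161, minus strand): actcgctatcTCAAGGTCAcgcctaggca
Psap (chr10:60277469-60277497, minus strand): ggtgattaaaTCAAGGTCAggcgccgaac

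All 6 windows hold the full TCAAGGNCA, so the letters of the motif itself do not separate these distant examples from those at the summit. They were chosen for holding it, and say nothing of how often it occurs.

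The promoter of Msrb1, which encodes a methionine sulfoxide reductase, shows the arrangement within a single stretch. The stretch below is chr17:24736386-24736575 (GRCm38.p6, plus strand), with the motif in capitals near its left end, where it reads as the reverse complement TGGCCTTCA. The single capital near its right end is the base of the ATAC-seq summit, 178 bp away.

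Msrb1 (chr17:24736386-24736575, plus strand): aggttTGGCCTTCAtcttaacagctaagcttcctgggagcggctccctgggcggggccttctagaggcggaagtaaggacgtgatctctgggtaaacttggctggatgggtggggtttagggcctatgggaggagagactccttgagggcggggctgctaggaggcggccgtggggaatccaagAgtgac

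The motif lay 201 bp before the Msrb1 start site and the ATAC-seq summit 23 bp before it. The 190 bases held no other AAGGNCA on either strand and were 60.0% G or C. ATAC-seq of this region stood at 6.10 RPKM in the knockouts and 18.8 RPKM in the heterozygotes. The ratio was 0.324 (95% interval 0.169 to 0.602, adjusted p = 0.0205 by the exact binomial test described below). In the pools it stood at 5.96 RPKM in the treated and 8.32 RPKM in the untreated pool, with an adjusted p of 0.408.

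Across the 2923 regions, the distance from motif to ATAC-seq summit had a median of 324 bp, with quartiles of 233 and 482 bp and a longest distance of 1785 bp. It was under 200 bp in 465 regions, from 200 to under 300 bp in 801, from 300 to under 500 bp in 977, from 500 to under 1000 bp in 611, and 1000 bp or more in 69. The motif fell on the side of lower coordinates in 1407 regions and on the side of higher coordinates in 1516. The distance was in most cases already present in the NR5A2 binding data, since the CUT&RUN summit itself was at least 150 bp from the ATAC-seq summit in 2362 regions (80.8%). In 128 regions (4.38%) the CUT&RUN summit was within 50 bp of the ATAC-seq summit and the move onto the motif made the distance. The move had a median of 61 bp. Seen from the ATAC-seq summit, the motif lay beyond the CUT&RUN summit in 2113 regions (72.3%), between both summits in 764 (26.1%), and on the opposite side in 46 (1.57%). The distance rule itself favours moves away from the ATAC-seq summit. The ATAC-seq summit lay outside the listed region in 1837 distant-motif regions (62.8%), against 152 (8.13%) of the summit-motif regions, a difference that the distance rule itself favours.

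**Figure D1:**
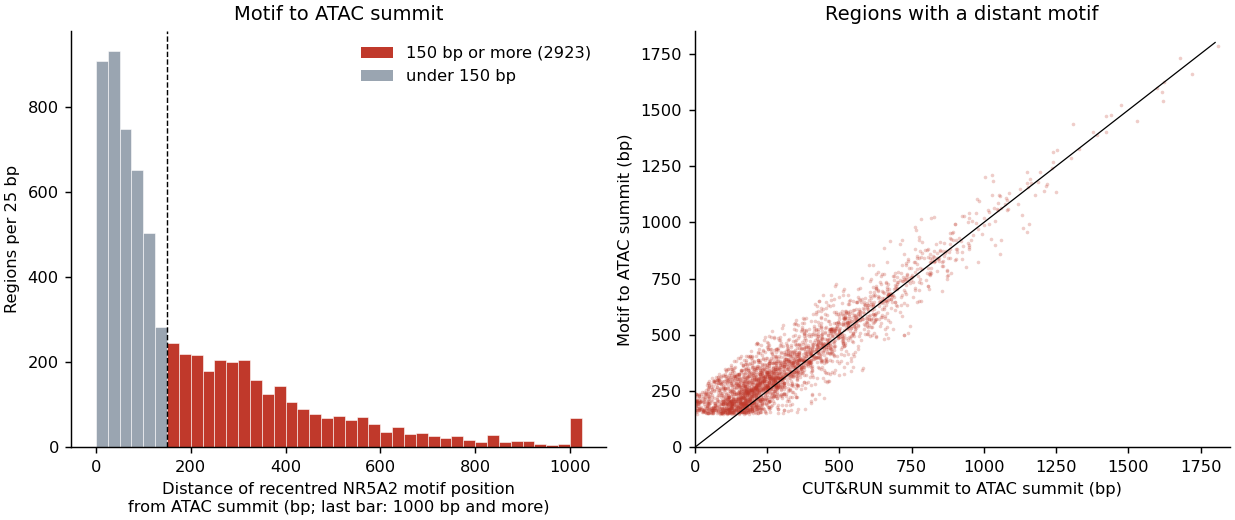
Left, number of accessible autosomal regions with a moved summit (per 25 bp) against the distance from the recentred NR5A2 motif to the ATAC-seq summit in bp, with the 2923 distant-motif regions in red to the right of the dashed line at 150 bp and the last bar holding all distances of 1000 bp or more. Right, distance from motif to ATAC-seq summit against distance from CUT&RUN summit to ATAC-seq summit, both in bp, for the distant-motif regions, with the line of equal distances; most points follow the line, with a median of 324 bp on the vertical axis and 274 bp on the horizontal axis.

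A small number of distant motifs shared their ATAC-seq summit with another bound region. Another listed region had its motif closer to the same summit in 110 regions (3.76%), and within 50 bp of it in 41 (1.40%). In those 41 pairs the distant member averaged 2.70 RPKM in knockouts and 4.61 RPKM in heterozygotes, and the member at the summit 3.64 RPKM and 7.16 RPKM in the same order. For the pools, the distant member averaged 1.85 RPKM in the treated and 3.42 RPKM in the untreated pool, and the member at the summit 3.02 RPKM and 4.82 RPKM. The distant member was the lower of the pair in 28 of 41 pairs in knockouts, 31 in heterozygotes, 36 in the treated pool and 33 in the untreated pool. In CUT&RUN, in contrast, it was lower in 20 of 41 pairs. The members of a pair had different ATAC-seq values, so reads were not counted in a window set at the shared ATAC-seq summit. The width and centre of the window are not given in the sources used here, and levels compared between regions depend on them.

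NR5A2 CUT&RUN was lower at distant motifs. It averaged 5.26 RPKM there (median 4.56, range 0.404 to 29.6) and 6.57 RPKM at summit motifs (median 5.89). Mean ATAC-seq was nearly equal in both, at 5.06 RPKM for distant-motif and 5.07 RPKM for summit-motif regions in heterozygotes, and 3.74 RPKM and 3.82 RPKM in the untreated pool. In knockouts the means were 3.34 RPKM and 3.12 RPKM, and in the treated pool 2.57 RPKM and 2.55 RPKM. The 990 accessible regions whose summit had not been moved had a higher heterozygote mean, 8.51 RPKM, and a lower CUT&RUN mean, 4.36 RPKM. Within the distant-motif regions, those with motifs under 200 bp away averaged 6.20 RPKM in heterozygotes and 6.11 RPKM in CUT&RUN, and those at 300 bp or more averaged 4.62 RPKM and 5.09 RPKM. Across the 2923 regions, which share the libraries, the Spearman correlation of distance with the untreated pool's level was −0.16.

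**Figure D2:**
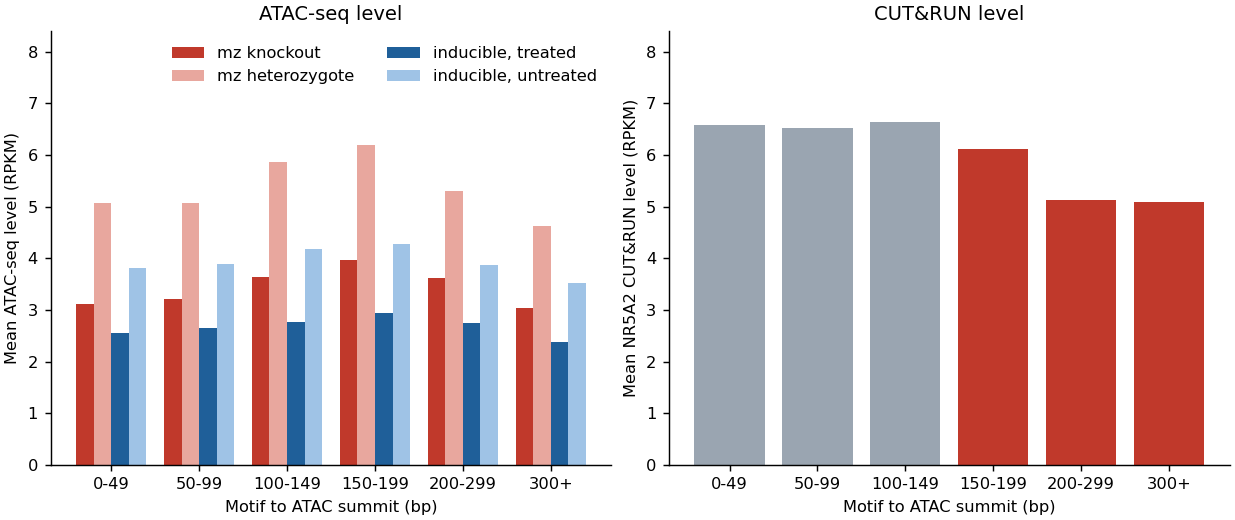
Left, mean ATAC-seq level in RPKM for accessible autosomal regions with a moved summit, grouped by the distance from motif to ATAC-seq summit in bp, with bars for mz knockouts, mz heterozygotes, the treated pool and the untreated pool. Right, mean NR5A2 CUT&RUN level in RPKM of the same groups, with red bars for distances of 150 bp or more; it stood at 6.11 RPKM from 150 to under 200 bp and 5.09 RPKM at 300 bp or more. Bars are means over regions of a single merged value per group, so they carry no error bars.

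Accessibility at distant motifs was lower without NR5A2 in both series. The ratio of summed RPKM was 0.661 (95% interval 0.650 to 0.672) for knockouts over heterozygotes and 0.687 (0.679 to 0.696) for the treated over the untreated pool. Levels were lower in knockouts than in heterozygotes at 72.8% of the regions, lower in the treated than in the untreated pool at 81.3%, and lower in both comparisons at 1790 regions (61.2%). Over all listed regions these shares were 64.3%, 74.4% and 50.5%, and over accessible autosomal regions 74.6%, 81.1% and 62.3%. Most of this drop is shared with the listed regions as a whole, whose ratios were 0.668 and 0.694 in the same order. The median log2 ratio, on the log2(RPKM + 1) scale, was −0.46 at distant motifs in the maternal-zygotic series. It was −0.32 over all 16958 regions and −0.48 over accessible autosomal regions. In the inducible series it was −0.42 at distant motifs, against −0.35 over all and −0.42 over accessible autosomal regions. How the columns were scaled to each other sets these levels: with each comparison scaled to a summed ratio of 1 over all regions, the ratios at distant motifs became 0.989 (0.972 to 1.01) and 0.991 (0.979 to 1.00). The size of the loss and the regions that pass a test therefore depend on the choice of scale. Ratios of summed RPKM compared between sets of regions do not, since a scale multiplies every region alike. The values below keep the deposited RPKM scale unless stated.

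Each region was tested by a two-sided exact binomial test on its reads, with adjustment over all 16958 regions at 0.05. In the maternal-zygotic series 64 distant-motif regions (2.19%) fell, against a background of 1.73% of all regions and 3.12% of accessible autosomal regions. There, 2 distant-motif regions rose, against a background of 0.0236% of all and 0.0504% of accessible autosomal regions. For the inducible series, 257 (8.79%) fell, against 6.37% of all regions and 10.2% of accessible autosomal regions, and 1 rose, against 0.0767% and 0.0882%. With regions of at least 10 reads over both columns tested alone, 107 of 1997 distant-motif regions fell in the maternal-zygotic series. The share over all regions under that minimum was not computed, so this count has no background. Over all regions tested, the shares that fell were above those of all regions and below those of accessible autosomal regions. Accessible autosomal regions averaged 5.58 RPKM in heterozygotes and the 8730 regions classed as not accessible 1.48 RPKM, so reads per region differed with the class. Among summit-motif regions 74 (3.96%) fell in the maternal-zygotic and 220 (11.8%) in the inducible series. With each comparison scaled to a median log2 ratio of 0, the maternal-zygotic split became 8 lower and 5 higher, and the inducible one 50 lower and 4 higher. Scaled to a summed ratio of 1, the splits were 3 lower and 6 higher, and 18 lower and 9 higher. For the splits under either scaling, too, no share over all regions was computed. The authors' deposited table classes 1372 distant-motif regions (46.9%) as Down, against 41.5% of all and 45.8% of accessible autosomal regions. It classes 1305 (44.6%) as Unchanged, against 41.6% and 46.6%, and 246 (8.42%) as Up, against 16.9% and 7.53%, in the same order.

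The ratio differed little between distant and summit motifs. Summit-motif regions had ratios of 0.616 (0.603 to 0.629) in the maternal-zygotic and 0.668 (0.658 to 0.678) in the inducible series. The log2 difference, distant minus summit, was 0.10 (95% interval 0.06 to 0.14) and 0.04 (0.01 to 0.07), so the loss was slightly smaller at distant motifs. Compared with the 990 regions with an unmoved summit, distant-motif regions lost more, by −0.11 (−0.16 to −0.07) and −0.20 (−0.23 to −0.17). Within the distant-motif regions the ratio did not move steadily with distance. Motifs from 200 to under 300 bp lost less than those under 200 bp in the maternal-zygotic series, by 0.10 (0.02 to 0.17), and by 0.04 (−0.01 to 0.09) in the inducible series. Over 1 kb from a gene end these were 0.14 (0.06 to 0.22) and 0.06 (0.00 to 0.12). Motifs at 300 bp or more then lost more than those from 200 to under 300 bp, by −0.06 (−0.11 to −0.00) and −0.07 (−0.11 to −0.03), and against those under 200 bp gave 0.04 (−0.03 to 0.11) and −0.03 (−0.08 to 0.02). Spearman correlations of distance with the log2 ratio over the 2923 regions were 0.03 and −0.01. Just inside the 150 bp limit, from 150 to under 160 bp, ratios were 0.567 and 0.622 over 98 regions, and just outside it, from 140 to under 150 bp, they were 0.645 and 0.716. Whether the ATAC-seq summit lay outside or inside the listed region made no detectable difference, −0.03 (−0.08 to 0.02) and 0.00 (−0.03 to 0.04).

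Among distant-motif regions, the ratio differed with position relative to genes. Of the 2923 distant-motif regions, 321 lay within 1 kb of the end of a RefSeq gene span, where start sites also lie, against 102 of the 1869 summit-motif regions. Those 321 had ratios of 0.793 and 0.792, and the other 2602 had ratios of 0.636 and 0.672. The log2 differences were 0.32 (0.25 to 0.38) in the maternal-zygotic and 0.24 (0.19 to 0.29) in the inducible series. The same contrast among summit-motif regions was 0.093 (−0.024 to 0.209) and 0.093 (0.006 to 0.180). Regions with an unmoved summit had ratios of 0.791 and 0.876 within 1 kb, and 0.670 and 0.752 farther away. The smaller loss near gene ends was therefore not particular to distant motifs. Over 1 kb from a gene end, distant minus summit motifs shrank to 0.05 (0.01 to 0.10) and 0.01 (−0.02 to 0.04). Within 1 kb it was 0.28 (0.15 to 0.41) and 0.16 (0.06 to 0.25). The difference between distant and summit motifs was thus larger near gene ends than away from them, and away from them the inducible interval included 0. The spans used here carry no exons, so exons and introns were not told apart. Against regions with an unmoved summit, of which 234 of 990 lay within 1 kb of a gene end, distant-motif regions differed by 0.00 (−0.07 to 0.08) and −0.15 (−0.21 to −0.08) within 1 kb, and by −0.07 (−0.12 to −0.02) and −0.16 (−0.20 to −0.13) farther away. By chromosome, distant-motif regions made up from 37.0% (chromosome 3) to 46.4% (chromosome 8) of the regions with a moved summit.

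Where a distant-motif region lay near a start site, the ATAC-seq summit was mostly nearer to that site than the motif. Start sites were known for the chromosomes of 2824 distant-motif regions. The ATAC-seq summit was within 100 bp of a start site in 107 of them (3.79%) and the motif in 12 (0.425%). Of 1807 summit-motif regions, the counts were 13 (0.719%) and 12 (0.664%). Of 957 regions with an unmoved summit, they were 93 (9.72%) and 63 (6.58%), with the unmoved CUT&RUN summit in place of the motif. Where either point was within 1000 bp of a start site, the ATAC-seq summit was the nearer in 202 of 251 distant-motif regions (80.5%), at a median of 125 bp against 461 bp for the motif. It was the nearer in 29 of the 61 such summit-motif regions and in 124 of the 204 with an unmoved summit. The 166 distant-motif regions with an ATAC-seq summit within 250 bp of a start site averaged 6.20 RPKM in knockouts and 7.82 RPKM in heterozygotes, with ratios of 0.792 and 0.831. The 2587 with an ATAC-seq summit over 1000 bp from any start site had ratios of 0.644 and 0.674. The log2 difference between these sets was 0.30 in both series (0.21 to 0.38 and 0.24 to 0.37). Regions with an unmoved summit had ratios of 0.819 and 0.892 within 250 bp of a start site. Over 1000 bp away these were 0.669 and 0.756, so a smaller loss at start sites was not particular to distant motifs.

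**Figure D3:**
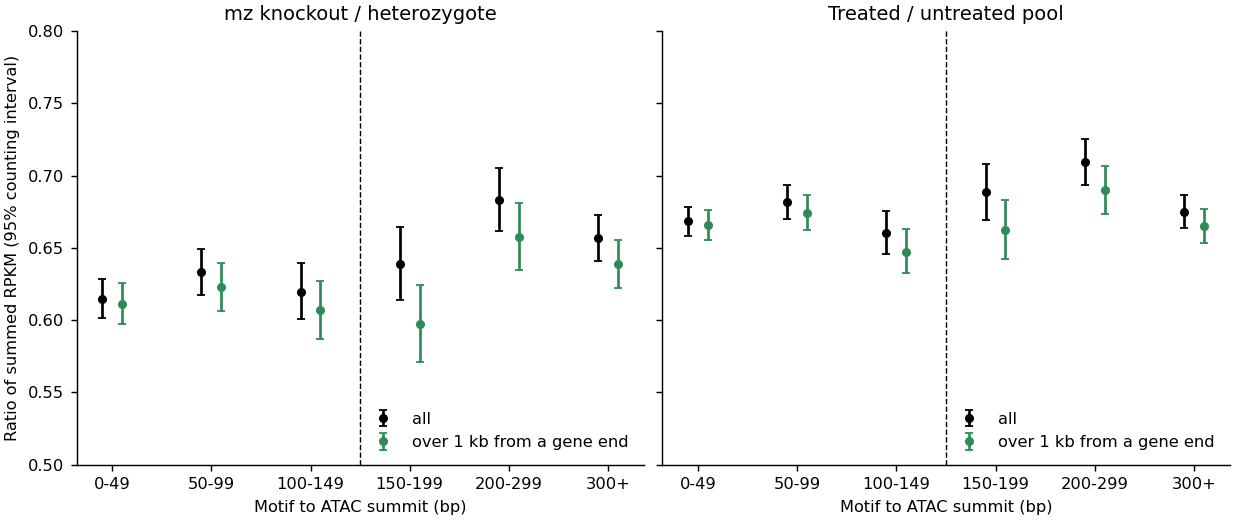
Ratio of summed RPKM against the distance from motif to ATAC-seq summit in bp, for mz knockouts over heterozygotes (left) and the treated over the untreated pool (right). Bars are 95% counting intervals, black points hold all accessible autosomal regions with a moved summit and green points those over 1 kb from a gene end, and distant motifs are to the right of the dashed line at 150 bp; the vertical axis starts at 0.50. Black points run from 0.615 to 0.683 on the left and from 0.661 to 0.709 on the right, with no steady trend.

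Levels of accessibility and binding were also set against the ratio. Regions were split into 5 groups of rising control level, taken from the other series so that it shared no reads with the ratio. The distant minus summit difference in the maternal-zygotic series was 0.20 (0.14 to 0.27) in the most accessible group, and between −0.004 and 0.079 in the other 4, each with an interval that included 0. In the inducible series it was 0.09 in both the most accessible and the next group (0.04 to 0.15 and 0.02 to 0.16), and −0.08 (−0.14 to −0.02) in the second lowest. The most accessible group included the region nearest Lars2, with 113 RPKM in knockouts and 96.3 RPKM in heterozygotes. Without regions of mean RPKM above 20, the difference without groups was 0.086 (0.046 to 0.127) in the maternal-zygotic series. In the inducible series it was then 0.037 (0.009 to 0.065). This was not run within the groups. Stronger NR5A2 binding went with a slightly larger loss among distant-motif regions in the inducible series, where the top of 5 groups by CUT&RUN level against the bottom gave −0.10 (−0.15 to −0.05). In the maternal-zygotic series this was −0.04 (−0.12 to 0.03). The 110 distant-motif regions with another bound region closer to their ATAC-seq summit lost more in the inducible series. Their ratio was 0.590 against 0.691 for the other 2813, a log2 difference of −0.23 (−0.33 to −0.13). In the maternal-zygotic series the difference was −0.01 (−0.15 to 0.13).

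The share of regions that fell in both series was close to that of all listed regions and below that of accessible ones. By the test in both, 12 distant-motif regions fell (0.411%), against a background of 0.413% of all regions and 0.781% of accessible autosomal regions. Of summit-motif regions 20 fell in both (1.07%), and of regions with an unmoved summit 10 (1.01%). Of the 64 distant-motif regions that fell in the maternal-zygotic series, 60 were also lower as a value in the treated than in the untreated pool, as were 81.3% of all distant-motif regions. Of the 257 that fell in the inducible series, 217 were also lower in knockouts than in heterozygotes, as were 72.8% of all distant-motif regions. Over the 2923 regions the log2 ratios of both series had a Pearson correlation of 0.24 and a Spearman correlation of 0.22, with few reads behind each point. An exact test of the difference between the ratios of the series passed at 0 distant-motif regions after adjustment, against 3 of all 16958 regions. An unadjusted p under 0.05 in that test was reached at 167 distant-motif regions (5.71%), against 747 of all regions (4.4%).

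**Figure D4:**
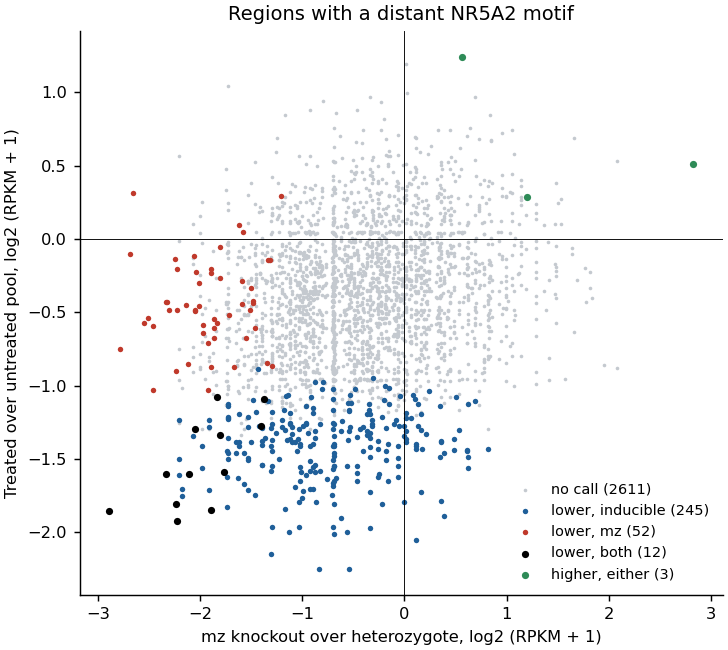
Log2 ratio of the treated over the untreated pool against the log2 ratio of mz knockouts over heterozygotes, both on the log2(RPKM + 1) scale, for the 2923 distant-motif regions. Colours mark regions lower in the inducible series only (245), in the maternal-zygotic series only (52), in both (12), and higher in either (3) by the exact binomial test; most points lie below 0 on both axes.

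Of the 12 regions that fell in both series, 10 are given here. The region inside Optn (chr2:5032012-5032422, mm10), which encodes the autophagy receptor optineurin, had its motif 774 bp from the ATAC-seq summit. It stood at 0.717 RPKM in knockouts and 11.7 RPKM in heterozygotes, and at 0.851 RPKM in the treated and 5.71 RPKM in the untreated pool. Its ratios were 0.0611 (0.00692 to 0.251) and 0.149 (0.0455 to 0.382), with adjusted p of 3.76e-04 and 5.01e-04. It stayed past the threshold in both series under both other scalings.

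The region 34.1 kb from Ptma (chr1:86492129-86492419), the gene of the nuclear protein prothymosin alpha, stood at 4.66 RPKM in knockouts and 18.2 RPKM in heterozygotes. It stood at 2.21 RPKM in the treated and 8.65 RPKM in the untreated pool, and its ratio was 0.256 in each series. A region 18.5 kb from Pank3 (chr11:35750704-35750988), a pantothenate kinase of coenzyme A synthesis, stood at 1.79 RPKM in knockouts and 9.40 RPKM in heterozygotes, and at 2.04 RPKM in the treated and 9.96 RPKM in the untreated pool. A region 67.1 kb from Cyp26b1 (chr6:84503955-84504279), which encodes an enzyme that breaks down retinoic acid, stood at 1.08 RPKM in knockouts and 8.81 RPKM in heterozygotes, and at 0.681 RPKM in the treated and 4.90 RPKM in the untreated pool. The motifs of these 3 were 169, 167 and 270 bp from the ATAC-seq summit.

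Of the others, the region inside Angptl2, a secreted angiopoietin-like protein, kept 6.46 RPKM in knockouts against 18.8 RPKM in heterozygotes, and 1.70 RPKM in the treated against 5.55 RPKM in the untreated pool. The region inside Kntc1, a kinetochore gene, was left with a single read in knockouts, 0.359 RPKM, against 5.87 RPKM in heterozygotes, and had 0.510 RPKM in the treated and 3.59 RPKM in the untreated pool. The remaining 4 named by the rule were nearest Slc24a2, Lrpap1, Mex3c and Naif1. They had 0.717 to 3.23 RPKM in knockouts and 7.05 to 14.1 RPKM in heterozygotes, and 0.510 to 2.72 RPKM in the treated and 4.73 to 6.86 RPKM in the untreated pool.

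**Figure D5:**
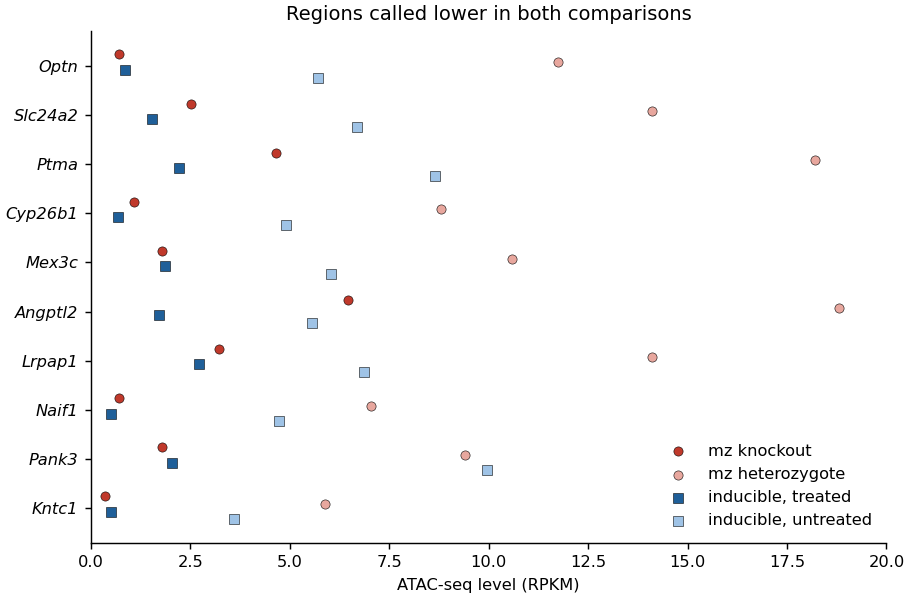
ATAC-seq level in RPKM of 10 distant-motif regions that fell in both series, named by the nearest gene, with circles for mz knockouts (dark red) and heterozygotes (light red) and squares for the treated (dark blue) and untreated pool (light blue). In every row both dark symbols lie to the left of the light symbol of their own series; each symbol is a single merged value.

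The 10 largest losses in the maternal-zygotic series were taken by the difference in RPKM, which favours regions with high levels. By ratio, these regions lost less or nothing in the inducible series, apart from Ptma. They were picked by their maternal-zygotic values, which favours a smaller loss in the other series, so this does not compare the series. The test between series passed at none of them after adjustment. The region inside Got1 (chr19:43505384-43505906), the cytosolic aspartate aminotransferase, had its motif 504 bp from the ATAC-seq summit and stood at 6.81 RPKM in knockouts and 37.6 RPKM in heterozygotes, a ratio of 0.181 (0.103 to 0.306) with an adjusted p of 9.23e-09. The same region stood at 6.47 RPKM in the treated and 9.47 RPKM in the untreated pool (adjusted p = 0.281). The region 41.5 kb from Mfge8 (chr7:79190515-79190845), which encodes a secreted protein that binds phosphatidylserine, stood at 1.43 RPKM in knockouts and 14.7 RPKM in heterozygotes (adjusted p = 1.49e-04), and at 3.74 RPKM in the treated and 4.08 RPKM in the untreated pool. The region inside Brd1 (chr15:88708924-88709398), a scaffold of histone acetyltransferase complexes, combined a CUT&RUN level of 24.5 RPKM with a motif 813 bp away. It stood at 9.32 RPKM in knockouts and 22.9 RPKM in heterozygotes (adjusted p = 0.0346), and at 8.85 RPKM in the treated and 7.02 RPKM in the untreated pool. The 6 others of this kind, nearest Gm38664, Nck2, Rin1, Slc38a8, Klhl18 and Msrb1, had 3.23 to 8.25 RPKM in knockouts and 16.4 to 29.4 RPKM in heterozygotes.

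Among the pools, the largest losses by the difference in RPKM, besides Pank3 and Ptma, included the region 0.686 kb from Pim1 (chr17:29496797-29497475), a serine/threonine kinase gene. It stood at 2.21 RPKM in the treated and 8.98 RPKM in the untreated pool (ratio 0.246, adjusted p = 2.53e-04). In knockouts it stood at 8.25 RPKM and in heterozygotes at 14.7 RPKM. The region 0.11 kb from Grin1 (chr2:25319297-25319715), an NMDA receptor subunit gene, stood at 1.19 RPKM in the treated and 7.18 RPKM in the untreated pool (ratio 0.166, adjusted p = 1.16e-04). Regions nearest Slc24a5, Gemin6, Gpd1l, Kifc3, Nudt4 and Allc had 1.53 to 5.45 RPKM in the treated and 7.51 to 10.9 RPKM in the untreated pool, and were also lower in value in knockouts than in heterozygotes.

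Across both series, 3 distant-motif regions rose. All 3 held under both other scalings, but this was built in and adds no weight to the rises. Both scalings raise the knockout and treated values, which favours rises and weakens losses. The named losses depended on the scale: of 25 in the maternal-zygotic series 7 held with the median log2 ratio scaled to 0 and 3 with the summed ratio scaled to 1, and of 25 in the inducible series 13 and 6 held. Got1, Mfge8 and Optn in the maternal-zygotic series, and Optn, Naif1, Pank3, Pim1, Grin1 and Slc24a5 in the inducible series, were the losses that held under both. The region near Tnfaip8l2 had 6.10 RPKM in knockouts and 0 reads in heterozygotes (adjusted p = 0.0384), and 3.91 RPKM in the treated and 2.45 RPKM in the untreated pool. The region inside Cdh13, a cadherin gene, had 5.62 RPKM in the treated and 1.80 RPKM in the untreated pool (adjusted p = 0.0206), and 3.95 RPKM in knockouts and 2.35 RPKM in heterozygotes. The third overlapped Sp110, where the motif was 1321 bp from the ATAC-seq summit, with 23.0 RPKM in knockouts and 9.40 RPKM in heterozygotes (adjusted p = 0.0475). It had 21.1 RPKM in the treated and 17.1 RPKM in the untreated pool. Sp110 belongs to a family with near-identical copies, so the placing of its reads is uncertain.

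The farthest motifs were nearest Pim3 (1785 bp), Tmem45b (1733 bp), Rps12 (1659 bp), Clybl (1626 bp) and Primpol (1597 bp). Of these, the region inside Primpol, which encodes a primase and polymerase, fell in the inducible series, with 0.510 RPKM in the treated and 3.92 RPKM in the untreated pool (adjusted p = 0.00425). The highest CUT&RUN levels were nearest Amd1 (29.6 RPKM), Prr12 (26.1 RPKM), Brd1 (24.5 RPKM), Prdm14 (22.5 RPKM) and 4932438H23Rik (21.0 RPKM). Of these 5, Brd1 passed the test in the maternal-zygotic series and none in the inducible one, too few to set against the shares of all distant-motif regions. The 5 distant-motif regions nearest Nr5a2 itself did not pass it either, with 4.30 to 8.61 RPKM in knockouts and 5.87 to 11.2 RPKM in heterozygotes, and 2.55 to 6.30 RPKM in the treated and 3.10 to 6.53 RPKM in the untreated pool.

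Distant-motif regions were then grouped by lists of genes within 50 kb. The counts that fell in a list stand against 2.19% of all distant-motif regions (1.73% of all listed regions) in the maternal-zygotic series and 8.79% (6.37%) in the inducible series, and counts this small do not set a list apart. Of 20 genes of pluripotency and the inner cell mass, 14 had a distant-motif region nearby, 27 regions in all. Their ratios were 0.525 (0.433 to 0.636) in the maternal-zygotic and 0.562 (0.495 to 0.638) in the inducible series, with 1 and 2 regions that fell and 0 that rose. The median log2 ratios were −0.70 and −0.60, against −0.46 and −0.42 over all distant-motif regions and −0.32 and −0.35 over all regions. The region 7.11 kb from Tfcp2l1 (chr1:118620280-118620816), a transcription factor of naive pluripotency, stood at 3.23 RPKM in knockouts and 11.7 RPKM in heterozygotes (adjusted p = 0.0496). The region 49.4 kb from Klf4 (chr4:55477487-55477700), another pluripotency factor, stood at 0.340 RPKM in the treated and 3.75 RPKM in the untreated pool (adjusted p = 0.00235). The region 1.68 kb from Tdgf1, a co-receptor of Nodal, stood at 0.510 RPKM in the treated and 3.75 RPKM in the untreated pool (adjusted p = 0.00611).

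For polarity and Hippo genes, which set apart outer and inner cells of the morula, 9 of 21 genes had 14 such regions. Their ratios were 0.479 (0.386 to 0.593) in the maternal-zygotic and 0.467 (0.390 to 0.558) in the inducible series. All 14 were lower in value in knockouts than in heterozygotes and 13 in the treated than in the untreated pool, against 72.8% and 81.3% of all distant-motif regions, while 1 and 3 fell by the test. A region inside Pard3 (chr8:127125868-127126077), an apical polarity gene, stood at 0.510 RPKM in the treated and 4.24 RPKM in the untreated pool (adjusted p = 0.00199), and another inside it stood at 0.717 RPKM in knockouts and 6.46 RPKM in heterozygotes (adjusted p = 0.0475). A region 5.78 kb from Tead4 (chr6:128306595-128307063), the transcription factor that starts the trophectoderm programme, stood at 2.89 RPKM in the treated and 7.51 RPKM in the untreated pool (adjusted p = 0.0177). Another, 10.8 kb from Tead4 and nearest Tulp3, stood at 1.53 RPKM in the treated and 5.22 RPKM in the untreated pool (adjusted p = 0.0170).

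The trophectoderm list, which also holds Tead4, had 10 regions near 7 of 21 genes, with ratios of 0.664 and 0.585, and 3 fell in the inducible series. The third of these, 15.1 kb from Hand1, a trophoblast transcription factor, stood at 1.53 RPKM in the treated and 5.06 RPKM in the untreated pool (adjusted p = 0.0215). Oocyte and maternal-effect genes had 13 regions near 8 of 19 genes, with ratios of 0.491 and 0.703. There, 2 fell in the maternal-zygotic series. The region 13.5 kb from Dppa3, a maternal-effect gene, stood at 2.51 RPKM in knockouts and 11.7 RPKM in heterozygotes (adjusted p = 0.0218). That 28.2 kb from Zp3, a zona pellucida gene, and nearest Ssc4d stood at 3.95 RPKM in knockouts and 13.5 RPKM in heterozygotes (adjusted p = 0.0405).

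Lipid, bile acid and steroid genes, listed as NR5A2 targets, had 8 regions near 6 of 17 genes, with ratios of 0.443 and 0.713. The region 30.2 kb from Scarb1, which encodes the HDL receptor, fell, with 1.08 RPKM in knockouts and 9.40 RPKM in heterozygotes (adjusted p = 0.0112). Primitive endoderm genes had 9 regions near 6 of 17 genes, with ratios of 0.496 and 0.646, and mitosis and genome maintenance genes 9 regions near 6 of 26 genes, with ratios of 0.662 and 0.804. In both lists 0 regions passed the test in either series. Genes of the 2-cell stage had 6 regions near 5 of 23 genes, with ratios of 1.08 and 0.962. In the maternal-zygotic series the Sp110 region of that list rose, and a region inside Crxos and 42.9 kb from Obox6 fell, with 5.02 RPKM in knockouts and 15.9 RPKM in heterozygotes (adjusted p = 0.0314).

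Nuclear receptors and their cofactors had 16 regions near 8 of 21 genes, with ratios of 0.863 (0.710 to 1.05) and 0.949 (0.825 to 1.09), and 0 that passed the test. Markers of cumulus and granulosa cells, which surround the egg, had 4 regions near 2 of 16 genes, with ratios of 0.847 and 0.910 and 0 that passed. Regions inside Gja1 and 40.4 kb from it were among these 4. Means over the 4 were 7.71 RPKM in knockouts and 9.11 RPKM in heterozygotes, and 5.28 RPKM in the treated and 5.79 RPKM in the untreated pool. All distant-motif regions were chosen as accessible, so these levels do not show whether such cells were present. The part of such cells in the other results was not tested. These list values are descriptions, each resting on few regions, and the nearest gene of a region need not be one that it acts on.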

How the data were processed

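ATAC-seq libraries of 23 mouse 8-cell samples were analysed from a single deposited table. It holds ATAC-seq values in RPKM, 1 merged column per group as the authors computed it, NR5A2 CUT&RUN values in RPKM, and a ratio per series, per the file headers. The deposited ratios equalled (knockout + 0.01)/(control + 0.01) within 5e-08. Per the submitters' processing notes, the tools were Cutadapt, Bowtie2 and MACS2, with build mm10. Which libraries the summits were called on and how duplicates were handled are not given in these sources. ATAC-seq RPKM was a whole multiple of 1 step per column within 0.0001 of it, for 100% of values, whatever the listed length, and reads were recovered from it. CUT&RUN RPKM times the listed length was a whole multiple in the same way, so only CUT&RUN was divided by that length.

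The design planned values per embryo where columns allowed, and the columns are merged, so reads per region went into an exact binomial test, two-sided, with Benjamini-Hochberg adjustment over 16958 regions at 0.05. Intervals of a summed ratio are exact at 95%, by Clopper-Pearson given the total reads, and log2 differences of ratios have intervals from the counting error of 4 read sums. PCR reads without molecular identifiers are not independent molecules, so intervals and floors of 3 reads cover counting error only. Log2 ratios per region used a pseudocount of 1 RPKM. The test was checked on simulated reads. Gene spans, start sites and sequences are from RefSeq GRCm38.p6 (chromosome 18 has no sequence here, and 1 motif window is not reported here), and the nearest gene was taken by span. Alternatives were other distances, read minima, pseudocounts, scalings and comparison regions. Python 3.11.15, numpy 2.4.6, pandas 2.3.3 and SciPy 1.17.1 were used.

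The distant-motif regions and the gene lists were chosen with earlier results of these data known. Named regions were the 10 largest losses and 5 largest gains past the test in each series, the 10 with the lowest larger adjusted p past it in both, the 5 farthest motifs, the 5 highest CUT&RUN values and, per gene list, those past the test. A list with none past it names its smallest p, given here only as a range or a count. The 5 regions nearest Nr5a2 were added after their values were seen.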

Additional observations from a re-analysis of the deposited data

How the results depend on the processing

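Scaling decided the level of loss. With the median log2 ratio of all regions set to 0, the ratios at distant motifs became 0.826 and 0.876 (maternal-zygotic, then inducible), the medians −0.24 and −0.17, and the regions lower 8 and 50. With the summed ratio set to 1 these were 0.989 and 0.991, −0.069 and −0.045, and 3 and 18. A pseudocount of 0.5 RPKM gave medians of −0.54 and −0.49, and one of 2 RPKM −0.38 and −0.33. With at least 10 reads over both columns, the maternal-zygotic median was −0.52 and 107 regions were lower. Shares over all regions were not computed under either scaling or the read minimum, so those counts have no background. A limit of 250 bp left 37 and 171 lower, by the smaller set. That limit left the regions tested, and so the shares of 1.73% and 6.37% over all regions, unchanged. The authors' class gave 1372 Down. The distant minus summit difference turned to −0.11 and −0.20 against regions with an unmoved summit, which is another comparison. In the maternal-zygotic series it was 0.051 as a difference of medians. In the inducible series it was 0.026 from 250 bp and 0.014 away from gene ends, with intervals that included 0. Within strata of accessibility and away from gene ends, chosen after the data were seen, it was 0.030 (−0.016 to 0.075) and 0.012 (−0.018 to 0.042). Beyond the effect of fewer regions, the cause was not tested. No paired analysis was possible because each group is a single merged column, which also kept leaving out single embryos from being run. The motif shares of windows around each summit were not run without a genome. Low reads per region limit single calls more than the sums.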
